A study of Mus musculus with 19 samples.

Results

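The mitochondrial respiratory chain and ATP synthase are built from subunits encoded in the nucleus and, for a few, in the mitochondrial genome. The genes described here are the nuclear ones, chosen by symbol alone: all names starting with Nduf, Uqcr or Atp5, the names Cox4 to Cox8 with their isoforms, Sdha to Sdhd, and Cyc1. Of 97 protein-coding genes that the rule covers, 94 had a probe on the array, out of 20660 named genes, and each was represented by its brightest probe out of 125. They comprise 36 subunits of complex I, 8 assembly factors of complex I (the Ndufaf genes), 4 subunits of complex II, 9 of complex III, 20 genes counted with complex IV and 17 of ATP synthase (complex V). Subunits encoded by the mitochondrial genome were not analysed here.

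In the chain, complex I takes electrons from NADH and complex II takes them from succinate, an intermediate of the tricarboxylic acid cycle. Both pass them through ubiquinone to complex III, and cytochrome c carries them on to complex IV, which reduces oxygen. Complexes I, III and IV pump protons across the inner membrane, and ATP synthase uses the gradient to make ATP. In blood, quiescent stem cells are known for reliance on glycolysis, erythroblasts use mitochondria for heme synthesis and clear them while maturing to reticulocytes, and mature neutrophils hold few mitochondria.

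Total RNA came from 7 sorted populations of adult bone marrow of C57BL/6 mice aged 8 to 12 weeks, with no genotype or treatment in the labels. LSK cells, the stem and multipotent progenitors, were lineage-negative, cKit+ and Sca1+ (3 arrays). Common myeloid progenitors (CMP, 3 arrays), megakaryocyte-erythroid progenitors (MEP, 3 arrays) and granulocyte-monocyte progenitors (GMP, 2 arrays) were lineage-negative, cKit+ and Sca1-, and were separated by CD16/32 and CD34. Early erythroblasts (EE, 2 arrays) were Ter119+, large and high in CD44, late erythroblasts (LE, 3 arrays) were Ter119+, smaller and intermediate in CD44, and granulocytes (GR, 3 arrays) were Gr1+. The labels do not say whether arrays of a group came from separate mice, so p-values measure only how far these 19 samples spread, which could be technical.

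A level is the log2 processed intensity minus that array's 75th percentile, so that 1 unit is a 2-fold change, and levels of different probes cannot be compared. A gene was called where limma gave an adjusted p under 0.05 over all features tested and all arrays of the higher group detected it (well above background by the scanner's flag). The sorts carried their markers, though not cleanly. The summed linear level of 8 erythroid genes was 11900 to 15900 in EE and 19600 to 21800 in LE. It was 579 to 619 in GR and 14.6 to 117 elsewhere. For 7 granulocyte genes it was 6290 to 7150 in GR, 2480 to 2800 in LE and 114 to 1790 elsewhere. For 5 LSK genes it was 66.2 to 73.6 in LSK cells, 50.8 to 51.4 in GR and 0.561 to 11.6 elsewhere. The 5 erythroblast arrays stood apart in brightness: their 75th percentile was 49.99 to 80.9 intensity units, against 266 to 606 on the other 14 arrays, and their 100 brightest spots held 28.4% to 39.1% of the signal, against 12.3% to 15.4%. In these bulk samples, fewer cells of a type and less RNA per cell cannot be told apart.

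All 91 genes that could be tested varied over the 7 cell types (moderated F test in limma), as did 95.6% of all features, so the share is near the background. Of the 89 genes detected on every array with no missing spot, 49 had their highest group mean in GMP, 22 in EE, 10 in CMP, 4 in LE, 2 in LSK cells, 1 in MEP and 1 in GR. The lowest mean fell in LE for 46 genes, in LSK cells for 26 and in GR for 14. The span between a gene's highest and lowest group means had a median of 1.66 log2 units. It was smallest for Ndufa6 (0.70) and largest for the assembly factor Ndufaf6 (4.79), whose lowest mean, in EE, came from dim signal.

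**Figure D1:**
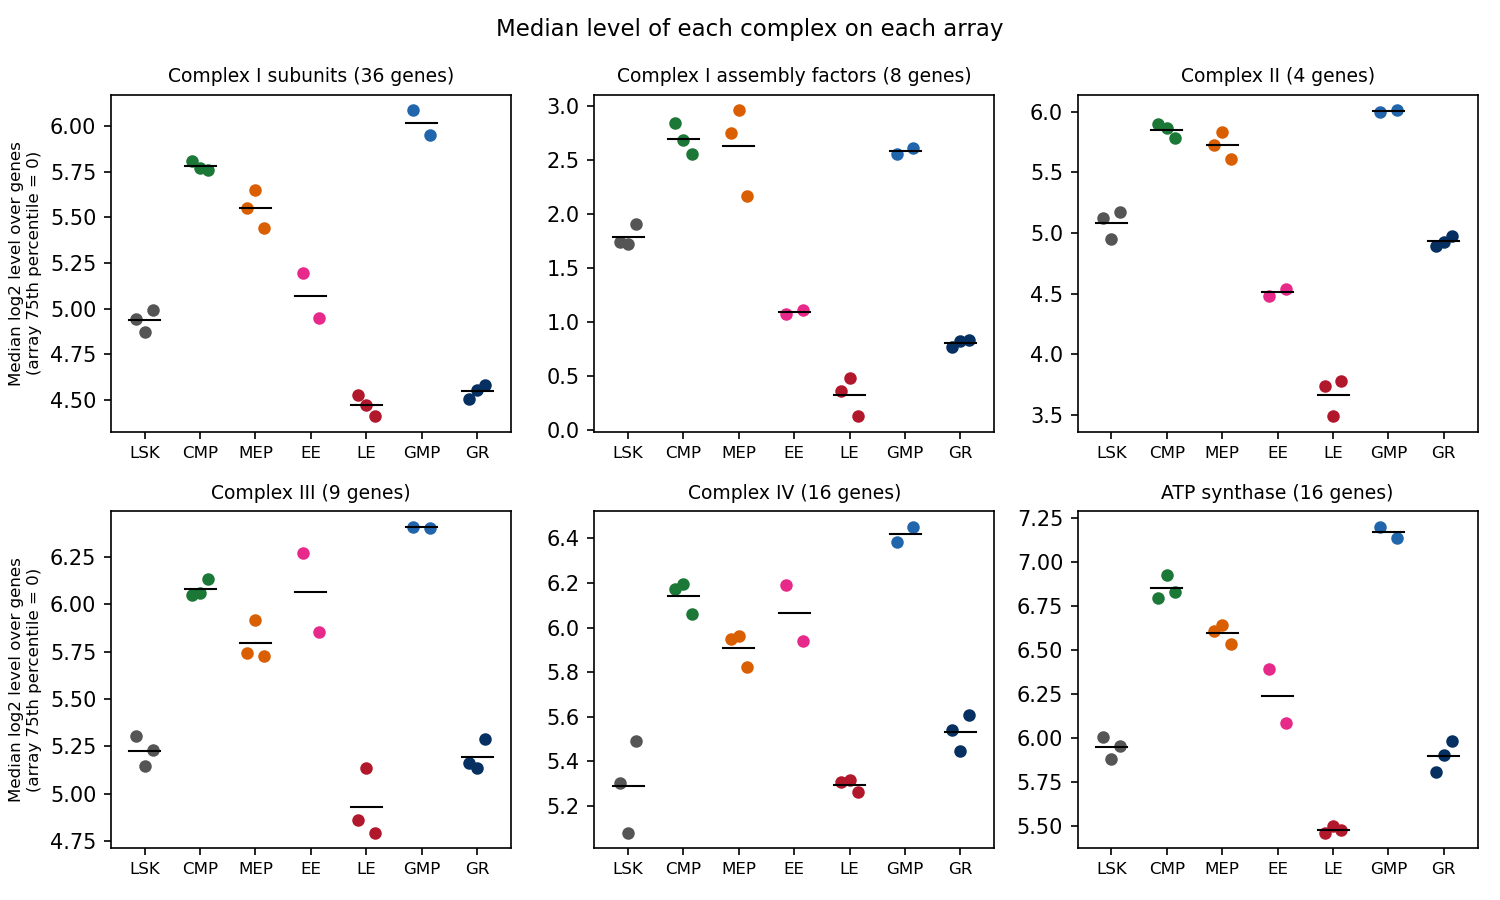
Median log2 level of the genes of each complex that were detected on all arrays, with 1 point per array, a line at the group mean, and cell types along the horizontal axis. In every panel the CMP points lie above the LSK points and the GR points below the GMP points. Both EE points lie below all MEP points for complexes I, II and V and the assembly factors. For complex II they lie at 4.48 to 4.54 in EE and 5.61 to 5.83 in MEP. The EE and MEP points overlap for complexes III and IV. A median over different probes can move unlike its genes: gene by gene, the median EE minus MEP difference is -0.04 for complex I and 0.04 for complex V.

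The median over complex I subunits was 4.87 to 4.99 on the LSK arrays, 5.76 to 5.81 in CMP, 5.44 to 5.65 in MEP, 4.95 to 5.19 in EE, 4.41 to 4.53 in LE, 5.95 to 6.09 in GMP and 4.51 to 4.58 in GR. For complex II it was 4.95 to 5.17 in LSK cells, 5.78 to 5.90 in CMP, 5.61 to 5.83 in MEP, 4.48 to 4.54 in EE, 3.49 to 3.78 in LE, 6.00 to 6.01 in GMP and 4.89 to 4.97 in GR. CMP and MEP overlapped for complex II, whereas the LE arrays lay below all others. Outside these genes, the 5 named genes whose levels followed the per-array median of the family most closely over the 19 arrays, among 8922 detected genes, were Cycs (cytochrome c, r = 0.979), Mrpl41 (0.976), Cops5 (0.973), Scarb1 (0.971) and Eif1ax (0.971). These values share the arrays and their scaling and are given as a description.

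The step into CMP raised nearly the whole family. In CMP, 81 of 91 genes tested were higher than in LSK cells, where 23.2% of all features were higher, and 1 was lower, where 13.5% of all features were lower. The median difference was 0.84 for the family and 0.17 for all features, and it stayed above 0 under every scaling tried (0.51 with the percentile over detected probes, 0.43 with quantile normalization, 1.18 with spike-in scaling). All complexes took part: 35 of 36 complex I subunits, 4 of 4 of complex II, 9 of 9 of complex III, 13 of 17 tested of complex IV and 16 of 17 of ATP synthase were higher, with medians between 0.79 and 0.86. Of the complex I assembly factors, 4 of 8 were higher. After quantile normalization the counts were 22 for complex I, 2 for complex II, 5 for complex III, 10 for complex IV and 12 for ATP synthase. Under it 55 of 91 genes were higher, where 3448 of 24182 features were higher. With spike-in scaling, 5 of 91 genes were called higher, where 818 of 24182 features were higher.

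Ndufab1, the mitochondrial acyl carrier protein that is also a complex I subunit, had levels of 2.27, 1.98 and 2.14 in CMP, against 0.42, 0.23 and 0.21 in LSK cells. Its difference of 1.84 ± 0.15 (SE, limma adjusted p = 3.6e-07) was the largest in the family, and the groups did not overlap. Atp5g1, which encodes a precursor of the proton-carrying c subunit, had 7.45, 7.36 and 7.44 in CMP and 6.07, 5.86 and 5.87 in LSK cells, a rise of 1.48 ± 0.12 (limma adjusted p = 3.9e-07). The other genes for the same mature protein rose less, Atp5g3 by 0.92 and Atp5g2 by 0.57. The catalytic core of ATP synthase was also higher, with 0.77 for Atp5b (beta subunit) and 0.49 for Atp5a1 (alpha subunit).

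Among the core of complex I, Ndufv1, which binds the NADH-oxidizing flavin, rose by 0.95, Ndufs1 by 0.85, Ndufs7 by 0.76 and Ndufs8 by 0.65, all 4 being part of its electron path. The complex II subunits rose by 0.47 (Sdha, the flavoprotein), 0.75 (Sdhb, the iron-sulfur subunit), 0.84 (Sdhc) and 1.06 (Sdhd, like Sdhc a membrane anchor). In complex III the largest rises were those of Uqcr10 (1.17) and Cyc1, cytochrome c1 (1.12). In complex IV they were those of Cox6b2 (1.71), a form known from testis, and Cox5b (1.26), followed by Cox6a1 (1.05). Other rises at the top of their groups were those of Ndufa5 (1.09), Atp5k (1.19), Ndufaf4 (1.01) and Ndufaf6 (0.96).

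Cox7a2l, a factor for joining complexes III and IV into supercomplexes, was the exception. Its levels were 6.87, 6.89 and 6.81 in CMP, against 7.05, 7.31 and 7.04 in LSK cells, a difference of -0.27 ± 0.10 (limma adjusted p = 0.040). The call was lost without CMP replicate 1, 2 or 3 or LSK replicate 2 and with slide as a block (-0.22), and the difference was 0.07 with spike-in scaling. The granulocyte marker list moved with this comparison: all 7 genes were detected on every CMP and LSK array, with a summed linear level of 162 to 294 in CMP and 1190 to 1330 in LSK cells. The platelet list, with 4 of 4 genes detected, summed to 68.2 to 89.1 in CMP and to 10.9 to 11.4 in LSK cells. Their part in the result was not tested.

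**Figure D2:**
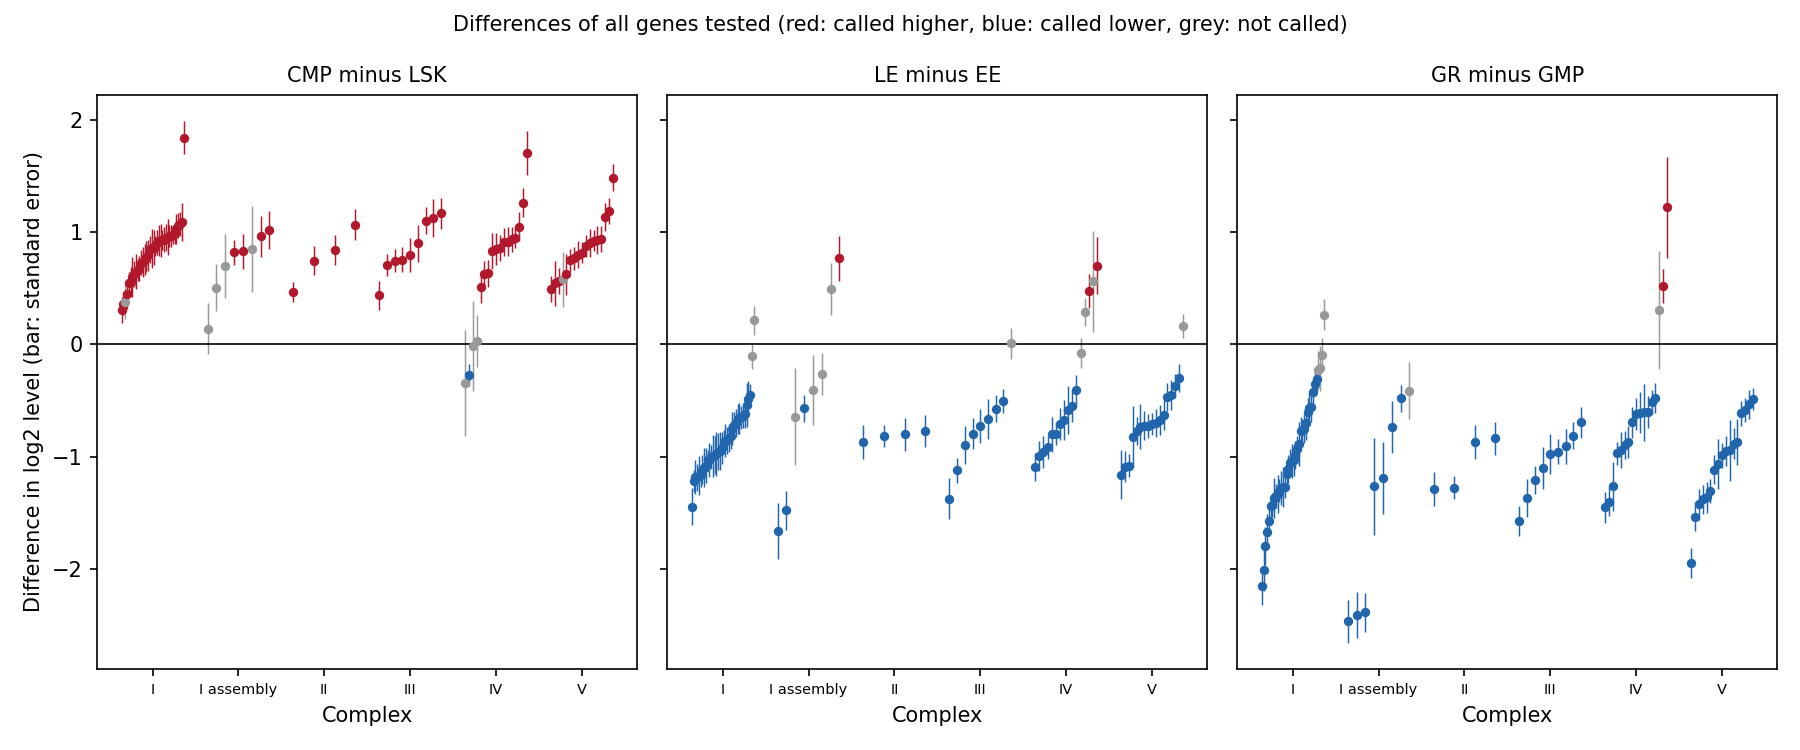
Difference in log2 level of each gene tested, grouped by complex along the horizontal axis, for CMP minus LSK, LE minus EE and GR minus GMP. Points are genes, bars are standard errors, and colour marks calls. Nearly all genes lie above 0 in the left panel (median 0.84) and below 0 in the middle (median -0.74) and right panels (median -0.96).

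MEP and CMP differed little, in this family as over all features. In MEP, 0 of 91 genes were higher than in CMP (1.91% of all features) and 1 was lower (2.6% of all features), with limma at an adjusted p under 0.05. At an unadjusted p under 0.05 the count was 25. The share over all features is not given for it, so it cannot be read against the background. The lower gene was Cox5a, with 7.22, 7.21 and 7.07 in MEP and 7.51, 7.59 and 7.63 in CMP, a difference of -0.40 ± 0.09 (limma adjusted p = 0.023). That call was lost without CMP replicate 2 or 3, without MEP replicate 2 or 3 and with quantile normalization (-0.23). The median of the family was -0.21, against -0.03 for all features. The erythroid list summed to 79.8 to 117 in MEP and to 88.1 to 117 in CMP, and the platelet list to 66.0 to 81.6 and 68.2 to 89.1. The primary granule list summed to 328 to 559 in MEP and to 750 to 1260 in CMP. Their part in the result was not tested.

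In GMP, 16 of 91 genes were higher than in CMP, where 9.5% of all features were higher, and 2 were lower, where 8.49% were lower. The family's median was 0.20, against 0.04 for all features. With spike-in scaling it became -0.52, against -0.69 for all features, so the family still lay 0.16 above all features. Those called higher were 7 complex I subunits, 1 of its assembly factors, 2 subunits of complex III, 3 of complex IV and 3 of ATP synthase. Ndufb3 had 6.09 and 5.93 in GMP, against 5.28, 5.23 and 5.34 in CMP, a difference of 0.73 ± 0.13 (limma adjusted p = 0.00063). Ndufa1 (0.53), Uqcrq (0.69), Uqcrb (0.38), Cox7a2 (0.61), Cox7b (0.42), Cox5a (0.40), Atp5l (0.45), Atp5mpl (0.43) and the assembly factor Ndufaf3 (0.98) were the others named here. For Uqcrq, CMP replicate 3 was at 6.32, below the other CMP arrays at 6.90 and 7.07, and its second probe, detected on all arrays, gave 0.25. None of the 4 complex II subunits was called. The count of higher genes was 5 without GMP replicate 1, 5 without GMP replicate 2 and 10 without CMP replicate 1. After quantile normalization it was 2 of 91, where 1344 of 22811 features were higher, so that share was below the background. The primary granule list, with 4 of 4 genes detected, summed to 2980 to 3160 in GMP and to 750 to 1260 in CMP, the granulocyte list, with 7 of 7, to 1290 to 1790 in GMP and to 162 to 294 in CMP. The platelet list, with 3 of 4 genes detected in GMP and 4 of 4 in CMP, summed to 3.05 to 5.05 in GMP and to 68.2 to 89.1 in CMP. Their part in the result was not tested.

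MEP were lower than GMP in 53 of 90 genes tested, where 18.3% of all features were lower, and higher in 2, where 13.7% of all features were higher. The family's median was -0.44, against -0.06 for all features. With spike-in scaling it was 0.32, against 0.69 for all features, so the family still lay below all features. Under that scaling 0 genes were lower, where 542 of 21938 features were lower. The count of lower genes was 21 without GMP replicate 1. It was 15 of 90 with the percentile over detected probes, where 2443 of 21938 features were lower. With quantile normalization it was 5 of 90, where 2583 of 21938 features were lower, so that share was below the background. Lower genes were found in complex I (25 of 36), III (6 of 9), IV (8 of 16) and ATP synthase (13 of 17), but 0 of 4 complex II subunits were called. Ndufb3 fell by 0.99, Ndufa1 by 0.70, Uqcrq by 0.72, Uqcrc1 (a core protein of complex III) by 0.69, Cox7a2 by 0.86, Cox5a by 0.80, Ndufaf3 by 0.72 and Atp5g3 by 0.63. Atp5c1, the central shaft of ATP synthase, had 6.70, 6.74 and 5.44 in MEP and 7.22 and 7.14 in GMP, so that 1 MEP array lay far below the other 2 (-0.89 ± 0.27, limma adjusted p = 0.021). A second Atp5c1 probe detected on all arrays gave -0.33. Atp5e fell by 0.69 over the 2 MEP arrays with a value. The granulocyte list, with 6 or 7 of 7 genes detected in MEP and 7 in GMP, summed to 114 to 244 in MEP and to 1290 to 1790 in GMP, and the macrophage list, with 3 to 6 of 6 in MEP and 4 to 6 in GMP, to 0.624 to 0.849 in MEP and to 9.34 to 9.4 in GMP. The platelet list, with 4 of 4 genes in MEP and 3 in GMP, summed to 66.0 to 81.6 in MEP and to 3.05 to 5.05 in GMP. Their part in the result was not tested.

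The 2 genes that were higher in MEP were both tissue isoforms of complex IV. Cox6b2 had 3.53, 3.86 and 3.69 in MEP and 2.41 and 1.86 in GMP, a difference of 1.56 ± 0.21 (limma adjusted p = 5.1e-05). Cox6a2, known from heart and skeletal muscle, had 1.25, 0.26 and 1.38 in MEP, against -0.37 and -1.01 in GMP, a difference of 1.66 ± 0.45 (limma adjusted p = 0.010), a call that was lost without GMP replicate 2 (1.34). Both were also the only genes of the family called lower in GMP than in CMP, with differences of -2.72 for Cox6a2 and -1.24 for Cox6b2, and both kept these directions and calls with spike-in scaling.

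Between EE and MEP, genes of the family were called in both directions. In EE, 25 of 90 genes tested were higher than in MEP, where 43.6% of all features were higher, and 35 were lower, where 37.8% of all features were lower. The share of lower genes was thus near the background and that of higher genes below it. The median difference was 0.04, against 0.22 for all features. It turned negative with the percentile over detected probes (-0.13, all features 0.04) and quantile normalization (-0.47, all features -0.05). It was also negative with normexp background correction (-0.66), spike-in scaling (-3.47), slide as a block (-0.01) and without EE replicate 1 (-0.14) or MEP replicate 3 (-0.02). Spike-in scaling moves all features of an array by the same amount, so its value also holds a shift of the whole array. The normexp offset of 50 was near the 75th percentile of the EE arrays (64.0 and 80.9 intensity units), and its part was not tested. With spike-in scaling, 0 genes were higher and 89 lower, so that none of the rises at this step kept its direction under it. On slide 3, the only one with arrays of both groups, the median was -0.31. All 60 called genes had the same sign there, but these arrays were also in the fit that made the calls. The agreement of signs is thus no separate support. Directions at this step are thus relative to each array's 75th percentile.

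**Figure D3:**
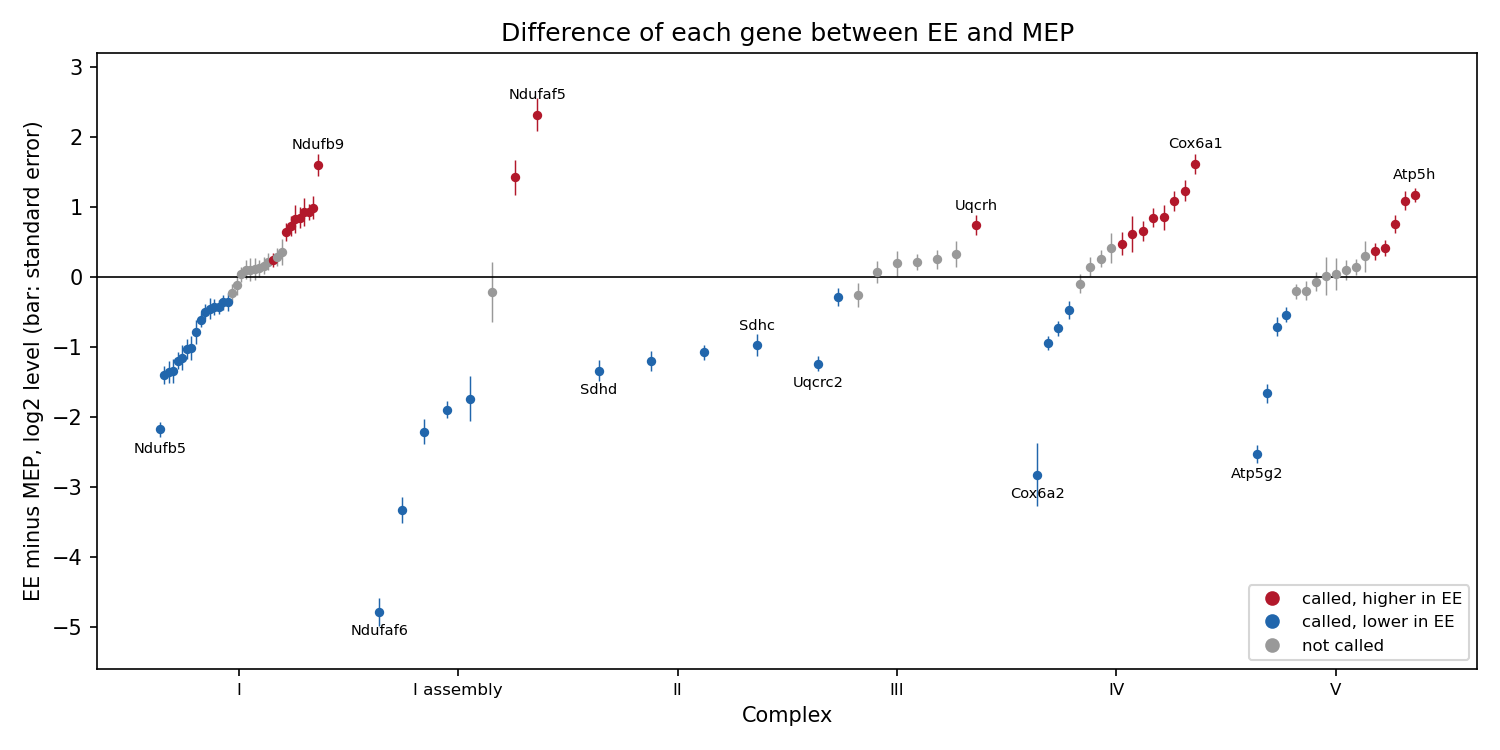
Difference in log2 level between EE and MEP for each of the 90 genes tested, grouped by complex and ordered by size within it, with standard errors and the extreme genes named. All 4 complex II genes lie between -1.34 and -0.97, whereas complexes I, IV and V spread on both sides of 0.

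Complex II was lower as a whole. Sdha had 4.33 and 4.36 in EE, against 5.39, 5.44 and 5.45 in MEP, a difference of -1.08 ± 0.10 (limma adjusted p = 1.3e-07). Sdhd fell by 1.34, Sdhb by 1.20 and Sdhc by 0.97. The EE and MEP arrays did not overlap for any of the 4, but this was common: it held for 63 of the 90 genes of the family tested. The share over all features was not counted. The median of -1.14 was negative under every scaling tried, from -1.32 to -4.64. A second detected probe of Sdhb gave -1.61 and one of Sdhc gave -0.87.

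All genes of the c ring of ATP synthase were lower. Atp5g2 had 5.60 and 5.46 in EE, against 7.91, 8.01 and 8.28 in MEP, a 5.8-fold fall (-2.54 ± 0.13, limma adjusted p = 1.1e-10). Atp5g1 fell by 1.67 and Atp5g3 by 0.54, so all 3 genes for the c subunit were lower, and all 3 were also called lower under each of the other scalings and with normexp. Of the other 14 genes of the enzyme, 5 were higher and 1, Atp5a1 (-0.71), was lower, with a median of 0.12. These counts depended on the processing: over all 17 genes of the enzyme, 5 were higher and 4 lower, against 3 and 6 with the percentile over detected probes, 2 and 9 after quantile normalization and 2 and 13 with normexp, the 3 c ring genes always among the lower. Atp5c1 was at 0.02 (not called), but its second probe, detected on all arrays, gave -0.79. Atp5h, a subunit of the stalk that holds the catalytic head still, had 8.47 and 8.38 in EE, against 7.37, 7.26 and 7.12 in MEP, a difference of 1.17 ± 0.10 (limma adjusted p = 5.1e-08). Atp5j2 rose by 1.09, and Atp5b was at 8.39 and 8.36 in EE, against 8.21, 8.36 and 8.13 in MEP (limma adjusted p = 0.24).

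In complex IV, 8 of 16 genes were higher, a share near the background, and 4 were lower, with a median of 0.44. After quantile normalization 5 were higher and 6 lower (median 0.14), with normexp 4 and 7 (median -0.16), and the median was -3.06 with spike-in scaling. Cox6a1, the common form of subunit VIa, had 10.25 and 9.78 in EE, against 8.31, 8.47 and 8.42 in MEP, a 3.07-fold rise (1.62 ± 0.14, limma adjusted p = 6.2e-08). Cox4i2, a form of lung and of low oxygen, rose by 1.23, Cox7a2 by 1.09, Cox4i1 by 0.85 and Cox8a by 0.85. The muscle form of subunit VIa, Cox6a2, had -1.48 and -2.24 in EE, against 1.25, 0.26 and 1.38 in MEP, a difference of -2.83 ± 0.45 (limma adjusted p = 3.4e-05). The level of -2.24 was near the lowest of any detected probe on that array (-2.81), so the size of this fall is imprecise. Cox5a fell by 0.94 and Cox7a2l by 0.74. Cox7a1 was called higher (0.61, limma adjusted p = 0.038) with EE arrays at -0.50 and -1.43, of which the second lay within the MEP range of -1.69 to -1.36, and the call was lost without EE replicate 1 (0.15).

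Of the complex I subunits, 9 of 36 were higher and 16 lower. After quantile normalization 4 were higher and 24 lower (median -0.56), and with normexp 3 and 26 (median -0.73). Ndufb5, a membrane-arm subunit, had 2.92 and 3.13 in EE and 5.19, 5.29 and 5.13 in MEP, a difference of -2.18 ± 0.11 (limma adjusted p = 9.9e-11), and its second probe gave -2.37. Ndufb9, of the same arm, had 7.97 and 7.40 in EE and 6.05, 6.09 and 6.13 in MEP, a difference of 1.60 ± 0.16 (limma adjusted p = 1.9e-07). Ndufa8 (-1.40) and Ndufs8 (-1.34) fell and Ndufb7 (0.99) rose, whereas Ndufv1 (0.28), Ndufs7 (0.11) and Ndufs1 (0.10) were not called. Ndufb11 was called higher (0.93), but its second detected probe gave -0.13. In complex III, Uqcrc2, a core protein, fell by 1.24, Uqcrb by 0.28 (a call lost in 8 of the alternatives, with -0.28 and -0.95 from its other probes), and Uqcrh, the hinge protein, rose by 0.74, a rise that was 0.11 and not called with normexp.

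Assembly factors of complex I showed the widest spread. Ndufaf6 had -2.52 and -1.57 in EE, against 2.57, 2.95 and 2.71 in MEP, a 27.6-fold fall (-4.79 ± 0.20, limma adjusted p = 1.7e-11). The level of -2.52 was near the lowest of any detected probe on that array (-2.93), so the size of this fall is imprecise. Ndufaf4 had -0.05 and 0.08 in EE and 3.35, 3.47 and 3.22 in MEP, a difference of -3.33 ± 0.19 (limma adjusted p = 3.9e-10). Ndufaf2 (-2.21), Ndufaf7 (-1.90) and Ndufaf8 (-1.74) fell too, so 5 of 8 were lower, and their median was negative under every scaling tried. Ndufaf5, which in human cells hydroxylates the complex I subunit NDUFS7, went against them with 1.59 and 2.05 in EE and -0.36, -0.38 and -0.76 in MEP, a difference of 2.32 ± 0.23 (limma adjusted p = 2.7e-07). Ndufaf3, the partner of Ndufaf4 in human cells, rose by 1.42. With spike-in scaling their differences were -1.18 for Ndufaf5 and -2.08 for Ndufaf3.

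**Figure D4:**
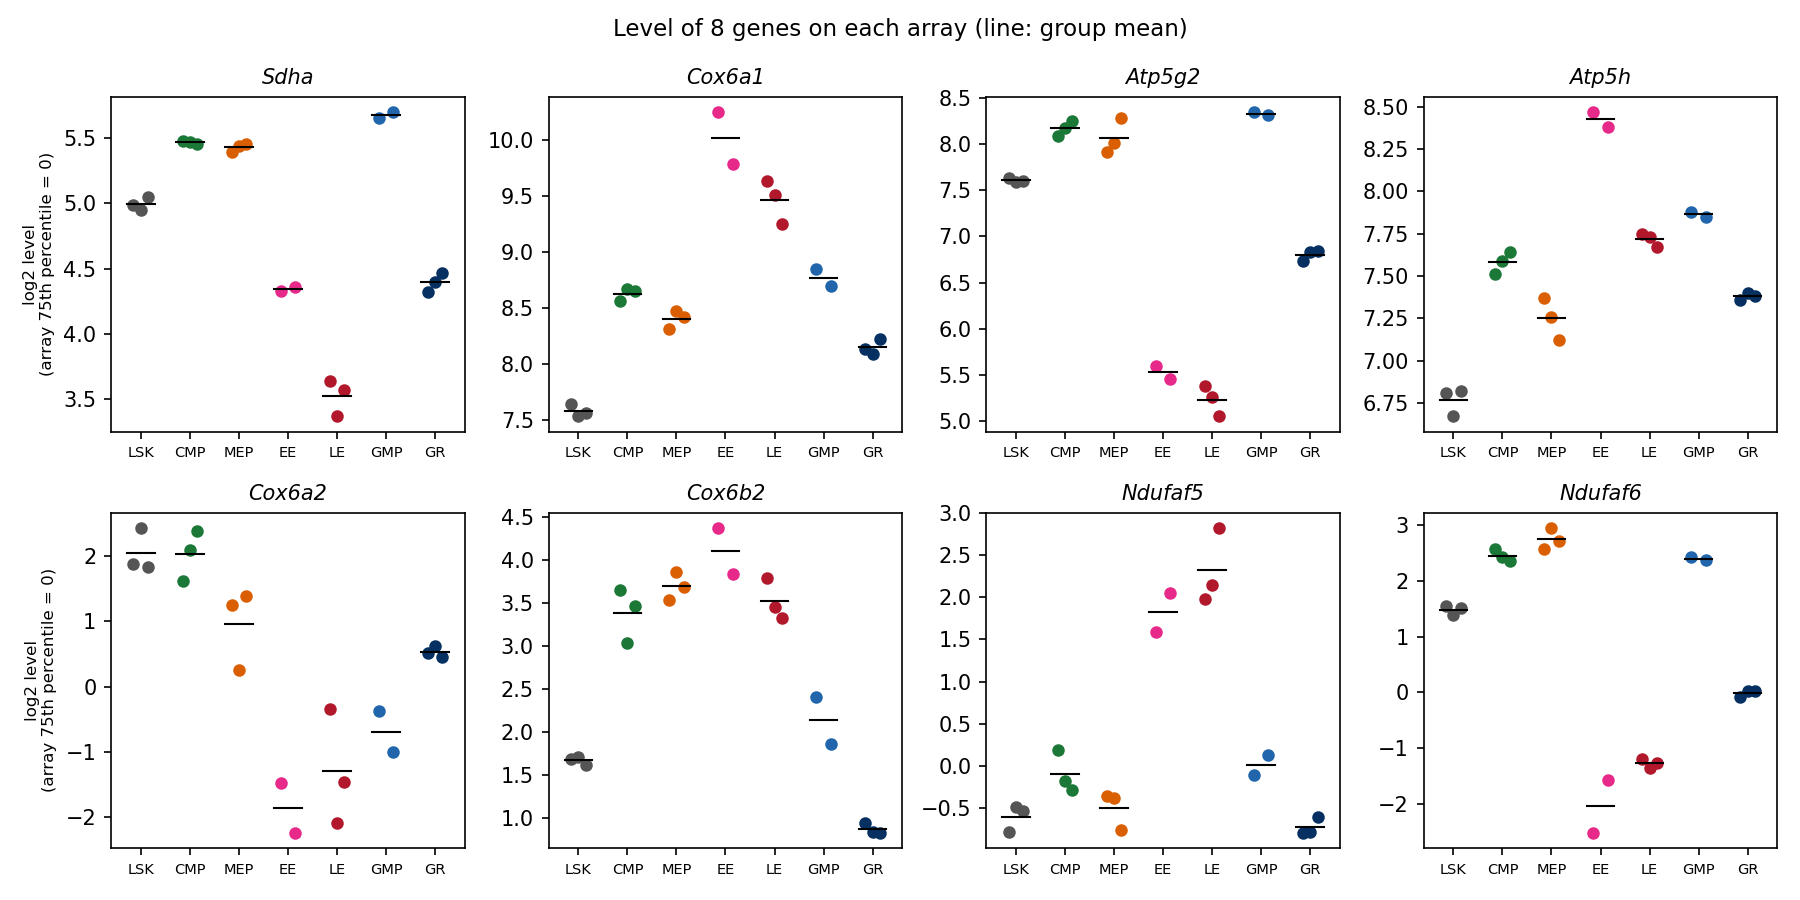
Log2 level of 8 genes on each array, with a line at the group mean and cell types along the horizontal axis. Sdha, Atp5g2 and Ndufaf6 are lower on both EE arrays than on any MEP array, Cox6a1, Atp5h and Ndufaf5 are higher, while the EE mean is the lowest of the 7 for Cox6a2 (-1.86) and the highest for Cox6b2 (4.10).

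Other mitochondrial genes, from lists chosen with earlier results of these data known, can be read beside the family at this step. Of 77 mitochondrial ribosomal protein genes tested, 9 were higher and 56 lower in EE than in MEP, with a median of -1.21. Of 83 cytosolic ribosomal protein genes, 4 were higher and 63 lower, with a median of -0.70. Of 38 electron carriers and assembly factors outside the rule, 5 were higher and 28 lower, with a median of -1.37. The genes named here from these lists were picked after their values were seen. Their levels on the EE arrays are not given here, and where that signal was dim the size of a fall is imprecise. The complex II assembly factors Sdhaf3 (-4.01) and Sdhaf1 (-3.53) fell, as did the complex III assembly factor Uqcc1 (-4.00) and the complex IV copper chaperone Sco2 (-4.72), whereas Cox11 (2.80) and Timmdc1 (2.98) rose. Of 19 genes of the tricarboxylic acid cycle and pyruvate entry, 4 were higher and 11 lower, with a median of -0.64. Suclg2 (-6.11) and Idh2 (-3.58) fell, while Pcx, pyruvate carboxylase, rose by 5.37. Of 17 regulators tested, 1 was higher and 13 were lower: Nrf1, a transcription factor of respiratory genes, rose by 2.19, and Twnk, the helicase of mitochondrial DNA, fell by 5.66 and Tfam, which packages it, by 2.04. Marker lists of other cells also moved with this comparison. The granulocyte list, with 6 or 7 of 7 genes detected in both groups, summed to 571 and 1710 in EE and to 114 to 244 in MEP, and the macrophage list, with 6 of 6 in EE and 3 to 6 in MEP, to 6.66 and 7.6 in EE and to 0.624 to 0.849 in MEP. The platelet list, with 3 of 4 genes in EE and 4 in MEP, summed to 2.18 and 5.01 in EE and to 66.0 to 81.6 in MEP, and the T and NK cell list, with 3 of 4 in EE and 4 in MEP, to 21.2 and 26.0 in EE and to 6.73 to 7.93 in MEP. Their part in the results was not tested.

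Promoter windows are shown for 5 genes with large changes at this step, picked after their values were seen, because like motifs stand before genes that changed in opposite directions. The windows, from a RefSeq table of GRCm38.p6, run from 250 bases before to 50 bases after a gene's start, and 76 of the 94 genes had 1 or more. The core of the NRF1 site (GCATGCGC) stood in 15.8% of these genes and in 3.05% of all genes in the table, the ETS core of the GABP site (CCGGAAG) in 25.0% and 9.93%, and the YY1 core (ATGGCGGC) in 9.21% and 2.6%, on either strand. Matches of the NRF1 core on opposite strands may overlap. Of 20 genes higher in EE with a window, 5 held the NRF1 core, 8 the ETS core and 0 the YY1 core. Of 28 lower genes, 4 held the NRF1 core, 6 the ETS core and 5 the YY1 core. A match is a string in the window and says nothing of binding.

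Below, capitals mark these cores. The first pair of genes rose in EE and the other 3 fell. The window of Ndufaf5 lies at chr2:140170396-140170695 on the plus strand, of Cox6a1 at chr5:115348909-115349208 on the minus strand, of Ndufaf4 at chr4:24897833-24898132 on the plus strand, of Atp5g2 at chr15:102670998-102671297 on the minus strand and of Ndufb5 at chr3:32736813-32737112 on the plus strand, each written along its gene.
Ndufaf5: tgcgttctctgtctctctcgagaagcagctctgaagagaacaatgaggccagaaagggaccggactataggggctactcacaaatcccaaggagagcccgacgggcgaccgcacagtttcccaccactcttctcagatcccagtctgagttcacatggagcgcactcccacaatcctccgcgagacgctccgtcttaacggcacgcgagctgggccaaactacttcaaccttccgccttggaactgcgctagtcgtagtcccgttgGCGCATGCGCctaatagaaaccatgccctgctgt
Cox6a1: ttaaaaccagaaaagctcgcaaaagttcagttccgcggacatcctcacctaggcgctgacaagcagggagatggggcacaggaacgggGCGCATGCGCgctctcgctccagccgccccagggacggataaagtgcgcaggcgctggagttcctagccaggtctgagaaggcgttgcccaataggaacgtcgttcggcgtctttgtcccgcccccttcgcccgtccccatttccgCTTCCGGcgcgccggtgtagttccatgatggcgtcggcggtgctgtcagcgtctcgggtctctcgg
Ndufaf4: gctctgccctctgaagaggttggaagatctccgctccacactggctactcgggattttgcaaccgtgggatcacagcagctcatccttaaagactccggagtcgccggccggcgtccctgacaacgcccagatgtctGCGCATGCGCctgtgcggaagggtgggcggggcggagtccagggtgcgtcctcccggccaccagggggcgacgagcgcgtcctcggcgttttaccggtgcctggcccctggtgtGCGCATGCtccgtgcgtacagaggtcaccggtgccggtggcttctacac
Atp5g2: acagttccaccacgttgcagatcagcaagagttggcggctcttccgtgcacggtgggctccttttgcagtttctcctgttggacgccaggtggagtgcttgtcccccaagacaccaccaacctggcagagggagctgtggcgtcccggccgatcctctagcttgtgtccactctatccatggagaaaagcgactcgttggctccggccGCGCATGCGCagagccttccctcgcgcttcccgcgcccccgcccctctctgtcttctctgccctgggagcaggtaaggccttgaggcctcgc
Ndufb5: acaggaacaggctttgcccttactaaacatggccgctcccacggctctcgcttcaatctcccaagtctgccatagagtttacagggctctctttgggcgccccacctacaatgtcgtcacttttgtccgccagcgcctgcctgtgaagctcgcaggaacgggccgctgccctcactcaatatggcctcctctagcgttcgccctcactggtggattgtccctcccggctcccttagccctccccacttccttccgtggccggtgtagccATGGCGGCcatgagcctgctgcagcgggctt
Ndufaf5 (2.32), Cox6a1 (1.62), Ndufaf4 (-3.33) and Atp5g2 (-2.54) all hold the NRF1 core, Cox6a1 holds the ETS core besides, and Ndufb5 (-2.18) holds the YY1 core.

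Maturation from EE to LE lowered nearly the whole family. In LE, 76 of 90 genes tested were lower than in EE, where 37.8% of all features were lower, and 3 were higher, where 22.1% of all features were higher. The median was -0.74, against -0.17 for all features, and it was negative under every scaling tried (-0.37 to -1.67). The fall was not particular to this family. In LE, 62 of 77 mitochondrial ribosomal protein genes were also lower than in EE (median -0.90), as were 81 of 82 cytosolic ones (median -0.945). All 4 complex II genes, 34 of 36 complex I subunits, 8 of 9 of complex III, 11 of 16 of complex IV and 16 of 17 of ATP synthase were lower. With the percentile over detected probes, 29 complex I subunits were lower and 2 higher, 5 and 1 in complex III, 7 and 3 in complex IV and 8 and 1 in ATP synthase. Cyc1 had 4.76, 4.60 and 4.71 in LE, against 6.27 and 5.85 in EE, a difference of -1.37 ± 0.19 (limma adjusted p = 1.9e-05). Ndufab1 fell by 1.44, Ndufc2 by 1.21, Uqcrfs1 (the Rieske iron-sulfur protein) by 1.12, Cox7c by 1.09, Atp5d by 1.16 and Atp5o by 1.09. Ndufa4 fell by 0.996. The other Cox7c probes gave -1.16 and -0.25.

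The complex II subunits fell further, by 0.87 (Sdhd), 0.82 (Sdha), 0.80 (Sdhc) and 0.77 (Sdhb), and among the c ring genes Atp5g3 fell by 1.08 and Atp5g1 by 0.63. Atp5g2, already low in EE, was called lower by 0.30, but was 0.072 with the percentile over detected probes, under which Atp5b (-0.37) was at 0.004, and 0.01 after quantile normalization. Of the assembly factors, Ndufaf3 (-1.66) and Ndufaf2 (-1.48) fell. Cox6a1 was at 9.63, 9.51 and 9.25 in LE, against 10.25 and 9.78 in EE, a fall of 0.55, and Cox6b2 fell by 0.58. Cox8a (-0.08), Uqcrh (0.01) and Atp5l (0.16) were not called.

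The 3 genes that were higher in LE were Ndufaf6, Cox7a1 and Cox4i2. Ndufaf6 had -1.20, -1.36 and -1.27 in LE, against -2.52 and -1.57 in EE (0.77 ± 0.20, limma adjusted p = 0.0040). Cox7a1, the muscle form, rose by 0.70 and Cox4i2 by 0.48. All 3 calls were weak: that of Ndufaf6 was lost without EE replicate 1 (0.29), that of Cox7a1 without EE replicate 2 (0.24) or LE replicate 2 (0.54), and that of Cox4i2 without EE replicate 1 or 2 or LE replicate 3 (0.48, 0.47 and 0.40). With spike-in scaling the 3 differences were negative. The granulocyte list, with 6 or 7 of 7 genes detected, summed to 2480 to 2800 in LE and to 571 and 1710 in EE, and its part in these results was not tested.

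In granulocytes nearly the whole family was lower than in their progenitors. In GR, 83 of 91 genes tested were lower than in GMP, where 38.8% of all features were lower, and 2 were higher, where 27.8% of all features were higher. The median was -0.96, against -0.19 for all features, and stayed between -0.61 and -0.92 under the other scalings; with spike-in scaling 7 genes were called lower. No slide held arrays of both groups, and with slide as a block 70 genes were lower. All 9 genes of complex III, all 17 of ATP synthase, all 4 of complex II and all 12 common genes of complex IV were lower, together with 32 of 36 complex I subunits and 7 of 8 assembly factors. Over the 17 complex IV genes tested, 14 were lower, and 8 after quantile normalization.

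Ndufab1 had -0.24, -0.16 and -0.03 in GR, against 2.09 and 1.93 in GMP, a 4.45-fold fall (-2.15 ± 0.16, limma adjusted p = 3.7e-08). Ndufaf4 fell by 2.46, Ndufaf6 by 2.41, Ndufa5 by 2.01, Ndufv1 by 1.57, Uqcr11 by 1.57, Uqcrc1 by 1.36, Ndufa4, an accessory subunit of complex IV, by 1.45 and Cox7b by 1.40. The c ring genes fell by 1.94 (Atp5g1), 1.53 (Atp5g2) and 1.31 (Atp5g3), against a median of -0.94 over the other 14 genes of ATP synthase. Complex II subunits fell by 1.29 (Sdhc), 1.28 (Sdha), 0.87 (Sdhd) and 0.84 (Sdhb). The accessory subunits Ndufv3 (0.26), Ndufa13 (-0.09), Ndufa3 (-0.21) and Ndufb7 (-0.23) of complex I were not called. Ndufv3 had 6.87, 6.97 and 7.00 in GR and 6.78 and 6.59 in GMP.

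The genes higher in GR were both isoforms of complex IV. Cox6a2 had 0.52, 0.62 and 0.45 in GR, against -0.37 and -1.01 in GMP (1.22 ± 0.45, limma adjusted p = 0.026), and the call was lost without GMP replicate 2 (0.90), GR replicate 1 (1.23) or GR replicate 2 (1.18). Cox4i2 had -0.25, -0.40 and -0.47 in GR and -0.996 and -0.79 in GMP (0.52 ± 0.15, limma adjusted p = 0.0082), lost without GMP replicate 1 (0.42). Cox6b2 fell by 1.26. The erythroid marker list, of which 6 of 8 genes were detected in GMP and 8 of 8 in GR, summed to 579 to 619 in GR and to 14.6 to 19.4 in GMP. The macrophage list, of which 4 to 6 of 6 genes were detected in GMP and 6 of 6 in GR, summed to 75.6 to 78.1 in GR and to 9.34 to 9.4 in GMP. The part of both in these results was not tested.

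Mitochondrial ribosomal protein genes went with the family at this step, with 74 of 77 lower in GR than in GMP and a median of -1.36, and so did 82 of 84 cytosolic ribosomal protein genes, with a median of -1.24. In CMP against LSK cells, 72 of 77 mitochondrial ribosomal protein genes were higher (median 0.83), and 30 of 84 cytosolic ones (median 0.30). Of the tricarboxylic acid cycle genes, 15 of 19 were higher in CMP than in LSK cells and 17 of 19 lower in GR than in GMP.

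The tissue isoforms of complex IV had courses of their own. Cox6b2 averaged 1.67 ± 0.05 in LSK cells, 3.38 ± 0.32 in CMP, 3.69 ± 0.17 in MEP, 4.10 ± 0.38 in EE, 3.52 ± 0.24 in LE, 2.13 ± 0.39 in GMP and 0.87 ± 0.06 in GR (SD, n = 3, 3, 3, 2, 3, 2 and 3). Its EE and MEP ranges met (limma adjusted p = 0.090), while the GMP and GR arrays lay below all MEP, EE and LE arrays. Cox6a2 averaged 2.04 ± 0.33 in LSK cells, 2.03 ± 0.39 in CMP, 0.97 ± 0.61 in MEP, -1.86 ± 0.53 in EE, -1.30 ± 0.89 in LE, -0.69 ± 0.45 in GMP and 0.53 ± 0.09 in GR. The CMP and LSK ranges overlapped for it, as did those of LE and EE. Its levels of -2.24 on EE replicate 2 and -2.09 on LE replicate 2 were near the lowest detected there (-2.81 and -2.59). Cox4i2 averaged -1.19 ± 0.30 in LSK cells, 0.34 ± 0.002 in EE and 0.81 ± 0.16 in LE, its highest level. Cox7b2 was not well above background on any array, Cox8b and Cox8c on 1 array each, and Ndufa4l2 on 13 of 19.

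The branches were compared by the change from MEP to LE less the change from GMP to GR. It differed from 0 in 60 of 90 genes tested, 33 of them positive (42.4% of all features) and 27 negative (35.8% of all features), so both shares were near the background. By complex, 0 of 4 complex II genes were positive and 4 negative, 1 of 8 assembly factors positive and 5 negative, and 11 of 16 complex IV genes positive and 4 negative. The family's median of 0.17, against 0.22 for all features, was -0.20 with quantile normalization, -0.66 with normexp and -4.62 with spike-in scaling. The complex IV median of 0.80 was 0.69 with the percentile over detected probes, 0.43 with quantile normalization, -0.14 with normexp and -3.97 with spike-in scaling, while the complex II median of -0.88 was negative under all of them. Cox6a1 changed by 1.07 along the erythroid branch and by -0.62 along the granulocytic branch. Sdhd changed by -2.21 along the erythroid branch and by -0.87 along the granulocytic branch.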

How the data were processed

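Messenger RNA levels were measured on 19 custom Agilent one-colour arrays. The authors deposited scanner files whose processed signal is an intensity on a linear scale, and, per the file headers, the scanner software was Feature Extraction 11.5.1.1 with protocol GE1_1105_Oct12 and design build mm9. They also deposited a table of intensity values for the series, used as an alternative.

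The log2 intensity minus each array's 75th percentile was fitted with limma 3.58.1 in R 4.3.3, with a mean per cell type over all 19 arrays and Benjamini-Hochberg adjustment over all features tested. Testing needed a flag of well above background throughout 1 or more of the compared groups, and throughout all 4 groups in the comparison of branches. Control and outlier spots were left out. Probes were named by RefSeq accession, and each gene took its brightest probe. For 24 of the 94 genes more than 1 probe was present. Spots were missing for Atp5e on MEP replicate 3 and for Cox8b on 1 CMP array, and the fit dropped them. The number of arrays limits the precision. The fit was tested on simulated data. Python 3.11.15, pandas 2.3.3 and matplotlib 3.10.9 made the summaries and plots.

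Members and lists were chosen with earlier results of these data known. Genes named per comparison and complex were up to 2 with the largest rises and 2 with the largest falls among those called and detected on every array of both groups, plus a fixed set of catalytic subunits and tissue isoforms; any further gene was picked after its values were seen. Alternatives were the percentile over detected probes, quantile normalization, spike-in scaling, normexp (offset 50), the mean of all probes, no filter on dim probes, the authors' table, slide as a block, a replicate block, the compared arrays only, and leaving out each array. Normexp used the median spot signal because the files hold no mean signal. Its offset of 50 is about the size of the erythroblast arrays' 75th percentile (49.99 to 80.9). On the other arrays that percentile was 266 to 606. Normexp values that involve EE or LE may therefore reflect the offset, which was not tested. Same-numbered arrays did not deviate together in every pair. The correlations were -0.463, -0.235 and -0.521 for CMP and LSK, and 0.236, -0.023 and 0.41 for MEP and CMP. In the other comparisons they ran from -0.141 to 0.481. All correlations over 0.1 were between arrays of 1 slide, so a shared slide cannot be told from a shared mouse or sort. Deviations from the mean of so few arrays also depend on each other. Whether the numbers pair the arrays was therefore not decided. The sources used here do not give the origin of replicates.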

Additional observations from a re-analysis of the deposited data

Results flagged for a closer look

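The change from MEP to LE was set against the change from GMP to GR (limma interaction contrast, adjusted p under 0.05). Among 90 genes tested, 33 were called with a positive difference between branches (42.4% of all features) and 27 with a negative one (35.8% of all features). Both shares were near the background. No group held 4 or more arrays, so single arrays were not screened as outliers.

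Among complex I subunits the difference between branches was 1.68 for Ndufb9, 1.37 for Ndufa5, -1.96 for Ndufv3 and -1.63 for Ndufa8. Among its assembly factors it was 3.55 for Ndufaf5, -1.99 for Ndufaf7 and -1.61 for Ndufaf6. In complex II it was -1.34 for Sdhd and -1.14 for Sdhb, and in complex III it was 1.44 for Uqcrh, 1.03 for Uqcr11 and -0.79 for Uqcrc2. In complex IV it was 1.92 for Cox7a1, 1.69 for Cox6a1, 1.19 for Cox4i2, 1.09 for Cox6b2, -3.49 for Cox6a2 and -1.14 for Cox7a2l. In ATP synthase it was 1.31 for Atp5j2, 1.19 for Atp5l, -1.30 for Atp5g2 and -0.35 for Atp5j. The positive differences named here were negative with spike-in scaling. For Ndufa5, MEP replicate 3 was at 5.21, below the other MEP arrays at 5.89 and 5.91. Its second probe, detected on all arrays, gave -0.21 for EE minus MEP, -0.92 for LE minus EE and -1.70 for GR minus GMP. The brightest probe gave 0.355, -0.99 and -2.01. For Cox6a2, LE replicate 2 was at -2.09, near the lowest detected probe there (-2.59), so the size of its difference is imprecise.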

How the results depend on the processing

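Over 150 stated gene differences and 2386 alternative values, 2086 kept direction and call, 255 lost the call and 45 reversed; the causes were not tested. Where a probe was dim, its low signal over background limits the value.

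Leaving out 1 array at a time gave 75 to 79 higher and 0 to 1 lower genes for CMP against LSK cells, 0 to 2 lower for MEP against CMP, 5 to 12 higher for GMP against CMP, 1 to 2 higher and 21 to 43 lower for MEP against GMP, 21 to 34 higher and 30 to 39 lower for EE against MEP, and 1 to 2 higher for GR against GMP. The EE against MEP median ranged from -0.135 (without EE replicate 1) to 0.157 (without EE replicate 2).

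With the replicate block, 0 genes were lower in CMP than in LSK cells, and no other count moved by over 1.5 times. That count was also 0 with spike-in scaling, with no filter on dim probes, with slide as a block and with the compared arrays only. The count lower in MEP than in CMP was 0 with the percentile over detected probes, quantile normalization, spike-in scaling, no filter, the authors' table and the compared arrays only, 6 with normexp and 2 with slide as a block. With normexp, 1084 of 22841 features were lower. The count higher in GMP than in CMP was 4 with the percentile over detected probes, 2 after quantile normalization, 0 with spike-in scaling, 8 with no filter, 7 with slide as a block and 3 with the compared arrays only. Of 22811 features, 1478 were higher with the percentile over detected probes, 1344 after quantile normalization and 260 with spike-in scaling. For MEP against GMP, 4 genes were higher and 5 lower with quantile normalization, 15 lower with the percentile over detected probes, 0 with spike-in scaling, 33 with no filter and 26 with the compared arrays only. Of 21938 features, 3181 were higher and 2583 lower with quantile normalization. The lower features were 2443 with the percentile over detected probes and 542 with spike-in scaling.

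For EE against MEP, 14 genes were higher and 53 lower with quantile normalization (median -0.47), where 9067 and 9512 of 22791 features were. The counts were 0 and 89 with spike-in scaling (-3.47), and 11 and 62 with normexp (-0.66). The median was -0.13 with the percentile over detected probes and -0.014 with slide as a block. The count higher in LE than in EE was 9 with the percentile over detected probes and after quantile normalization, and 0 with spike-in scaling, normexp and the compared arrays only. For GR against GMP, 1 gene was higher with spike-in scaling and with slide as a block, and 7 were lower with spike-in scaling. Between branches, 20 differences were positive with quantile normalization (median -0.20), 0 were positive and 89 negative with spike-in scaling (-4.62), and 9 and 55 with normexp (-0.66).

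With spike-in scaling, 5 genes were higher in CMP than in LSK cells, where 818 of 24182 features were higher, and Cox7a2l was at 0.069 there. Under that scaling the medians were -0.52 for GMP against CMP and 0.32 for MEP against GMP. For all features they were -0.69 and 0.69. Under it the difference of GMP against CMP was -0.19 for Ndufa1, -0.032 for Uqcrq, -0.34 for Uqcrb, -0.12 for Cox7a2, -0.31 for Cox7b, -0.32 for Cox5a, -0.27 for Atp5l and -0.29 for Atp5mpl. For MEP against GMP it was 0.052 for Ndufa1, 0.033 for Ndufaf3, 0.031 for Uqcrq, 0.06 for Uqcrc1, 0.30 for Atp5e and 0.13 for Atp5g3. For EE against MEP it was -1.90 for Ndufb9, -2.51 for Ndufb7, -1.18 for Ndufaf5, -2.08 for Ndufaf3, -2.76 for Uqcrh, -1.88 for Cox6a1, -2.27 for Cox4i2, -2.65 for Cox4i1, -2.41 for Cox7a2, -2.65 for Cox8a, -2.89 for Cox7a1, -2.32 for Atp5h and -2.41 for Atp5j2. For LE against EE it was -0.16 for Ndufaf6, -0.23 for Cox7a1 and -0.45 for Cox4i2. Between branches it was -3.09 for Ndufb9, -3.41 for Ndufa5, -1.23 for Ndufaf5, -3.33 for Uqcrh, -3.75 for Uqcr11, -2.86 for Cox7a1, -3.09 for Cox6a1, -3.59 for Cox4i2, -3.68 for Cox6b2, -3.47 for Atp5j2 and -3.59 for Atp5l. For LE against EE, Atp5g2 was 0.072 and Atp5b 0.004 with the percentile over detected probes, and Atp5g2 was 0.01 after quantile normalization.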
